A study of Mus musculus with 6 samples.

Results

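The Myc, Max and Mxd network was examined in mouse glial cells with and without mutant histone H3.3. It comprises 10 genes, *Myc*, *Mycn*, *Mycl*, *Max*, *Mxd1*, *Mxd3*, *Mxd4*, *Mxi1*, *Mnt* and *Mlx*, chosen by name and found on the array through the accession that each probe carries. All 10 were among the 22911 genes that the probes named, and 8 of them were among the 14898 genes that were tested. WT cells were OS3 cells, an immortalized glial line from the brain of newborn C3H/HeN mice (strain C3H and male in the labels), carrying the empty vector, and IG27 cells were OS3 cells transfected with a plasmid encoding H3.3K27M, in which lysine 27 of the histone is replaced by methionine. Both lines share the SV40 immortalization of OS3, both were grown in the same serum medium with insulin and added glucose, and RNA was taken after 2 days of culture from 3 samples of each. Transfected cells were kept under drug selection and cloned, and the sources used here do not say whether the samples of a group come from 1 clone. An effect of H3.3K27M and a difference between the selected lines cannot be told apart, and p-values measure only the spread between samples, which may be technical. In bulk RNA, fewer cells expressing a gene and less RNA per cell cannot be told apart either.

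Myc proteins are transcription factors of the basic helix-loop-helix leucine zipper class that bind DNA only as a dimer with Max. The dimer recognizes the E-box CACGTG and recruits histone acetyltransferases, and its targets are known for ribosome production, nucleotide synthesis and cell growth. The Mxd proteins, Mxi1 and Mnt pair with the same Max and recruit the Sin3 and histone deacetylase corepressor to the same sites. Mlx is the Max-like partner of the glucose-sensing factors MondoA and ChREBP. In the nervous system this family is known for its part in progenitor growth and in glioma.

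The E-box is the sequence that the network reads, so the promoters of its own genes were searched for it. The windows were those of RefSeq on GRCm38.p6, each from 250 bases before to 50 bases after a transcription start. They covered 9 of the 10 genes (all but *Myc*), and CACGTG, which reads the same on both strands, was present in 4 of the 9. Among all 27025 genes with a window, 8.09% held it. The 4 matches are shown with 12 bases on each side, 5′ to 3′ on the strand of the gene, with the E-box in capitals.
*Max*, chr12:76962234-76962263, minus strand: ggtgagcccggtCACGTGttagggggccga
*Mlx*, chr11:101087238-101087267, plus strand: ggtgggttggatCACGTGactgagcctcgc
*Mnt*, chr11:74830789-74830818, plus strand: ccccacccaagcCACGTGtgcgcgcgcggt
*Mxd4*, chr5:34187912-34187941, minus strand: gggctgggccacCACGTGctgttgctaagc
Relative to the transcription start, the first base of the E-box was at -3 in *Max*, -40 in *Mlx*, -123 in *Mnt* and -219 in *Mxd4*. These letters are a description of the windows, not evidence of binding.

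RNA was measured on 6 single-color arrays of 1 slide, and values are log2 intensities scaled to the 75th percentile within each array. The scanner output of IG27 replicate 2 was incomplete, so the values of that array came from the deposited value table. On the 5 complete arrays 58.8% to 61.2% of 56605 probes were well above background. *H3f3a*, the gene of the transfected histone, differed by -0.26 on the log2 scale by its brightest probe and by -0.20 and 0.17 by its other 2 probes, and whether any of them reads the plasmid RNA is not given in the sources used here. Of 17 glial markers, 14 were well above background in both groups, among them *Gfap*, *Olig2* and *Sox10*, whereas the neuronal *Rbfox3* and *Syt1*, the microglial *Cx3cr1*, the leukocyte *Ptprc* and the endothelial *Cdh5* were well above background on no complete array. Of the 11 markers of other cell types, these 5 were absent by that measure, *Snap25*, *Pecam1* and *Col1a1* were well above background in both groups, *Aif1* and *Dcn* in IG27 cells, and *Col1a2* on some arrays. The log2 of the summed intensities of the glial markers was 8.52 to 8.59 in WT and 8.18 to 8.25 in IG27 cells. That of the 11 markers of other cell types was 6.89 to 6.93 and 6.0 to 6.1. Such sums mostly reflect the brightest genes. These were *Vim* (mean 7.11 in WT and 6.96 in IG27 cells) and *Gfap* (6.64 and 5.57) among the glial markers and *Col1a1* (6.85 and 5.93) among the others. Single glial markers differed far more than their sum, with 7 of 17 higher and 7 lower in IG27 cells. That was 82.4% of the glial markers, against 70.5% of all genes tested. *S100b* was 30.5-fold, *Pdgfra* 5.14-fold and *Olig2* 2.85-fold higher, and *Aldh1l1* was 3.30-fold, *Gfap* 2.10-fold and *Slc1a2* 2.04-fold lower (limma, adjusted p under 0.05 for each). *Slc1a3*, not well above background in WT cells, was at least 20.6-fold higher, taken against the lowest signal well above background on the WT arrays. The part of these marker differences in the results below was not tested.

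Of the 8 network genes tested, 2 were higher in IG27 cells (*Myc* and *Mxi1*) and 2 were lower (*Mxd1* and *Mxd3*) at an adjusted p under 0.05 (limma, Benjamini-Hochberg adjustment over all genes tested). The share called, 50%, is to be read against 70.5% of all genes tested. Of all genes, 30.5% were higher and 40% lower. At an unadjusted p of at most 0.05 the same 4 members passed, against 72.9% of all genes. Under quantile normalization 5 members were higher and 2 lower, 87.5% of the members against 72.6% of all genes. A change of at least 2-fold was found in 1 member, *Myc*, against 23.1% of all genes. The values of the groups did not overlap in 6 of the 8 genes, against 75.7% of all genes. Apart from the share under quantile normalization, these shares were below or near those of all genes. With slide row as a block, which leaves WT replicate 2 as the only WT array beside the IG27 arrays, the log2 fold changes were 1.21 for *Myc*, 0.98 for *Mxi1*, -0.75 for *Mxd1* and -0.92 for *Mxd3*, all called. All 8 were well above background on all complete arrays of both groups.

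**Figure D1:**
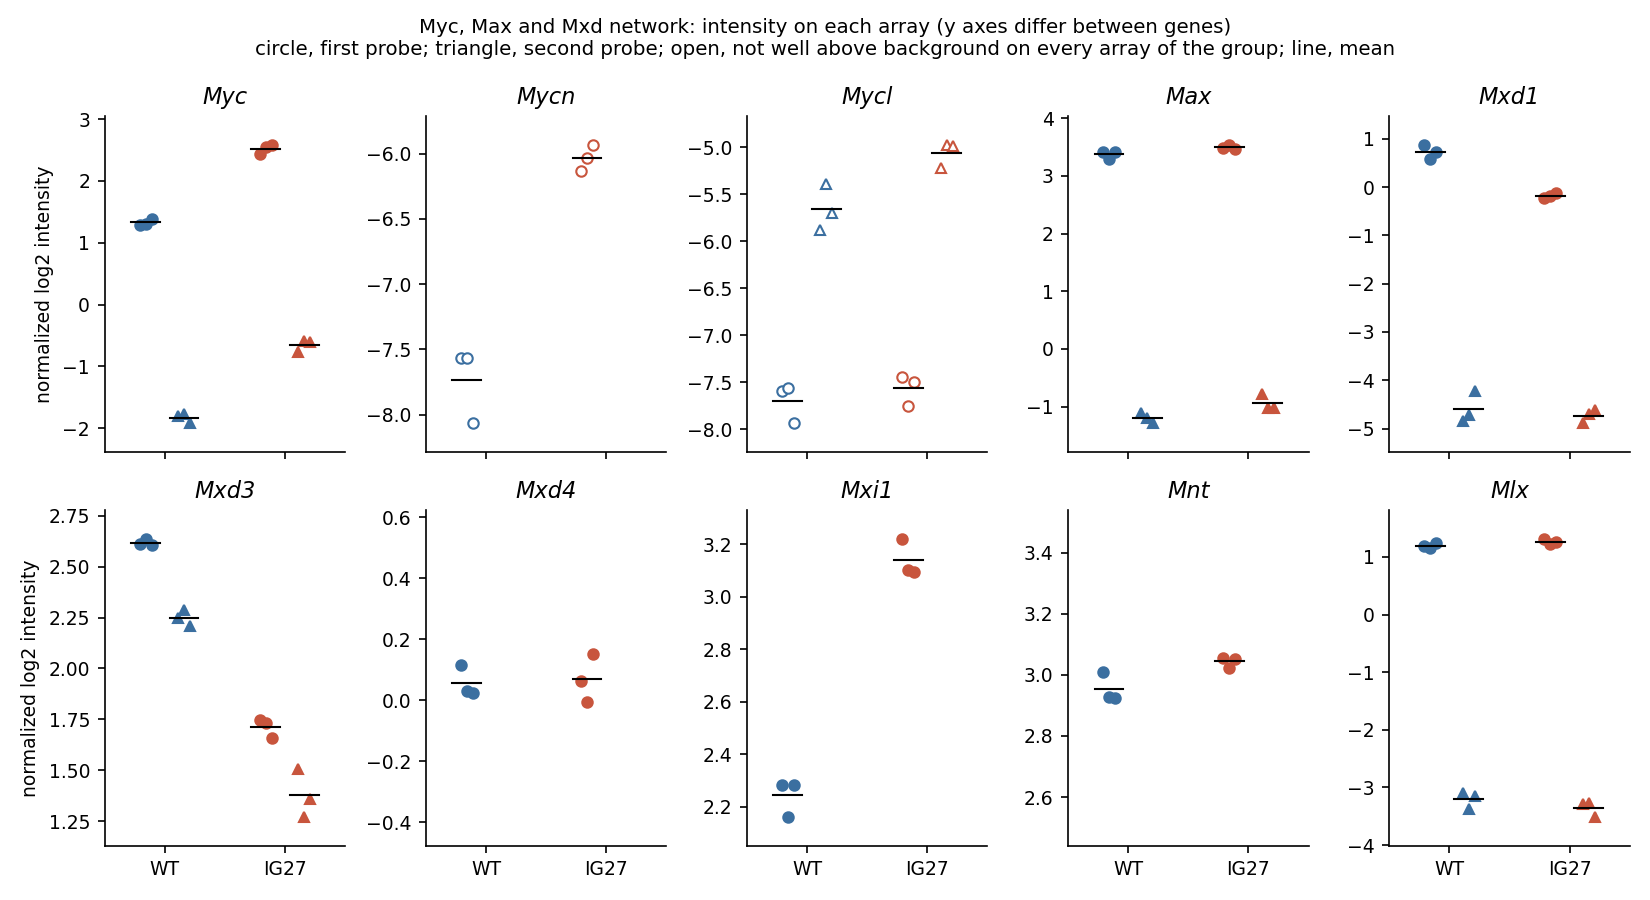
Normalized log2 intensity (y axis, a separate scale for each gene) of the 10 network genes on the 3 WT (blue) and 3 IG27 (red) arrays, with circles for the first probe, triangles for a second probe, open symbols for probes not well above background on every array of that group, and lines for the means. *Myc* and *Mxi1* lie higher and *Mxd1* and *Mxd3* lower in IG27 cells by their first probes, and both probes of *Mycl* and the probe of *Mycn* are open.

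Among the activators, *Myc* rose. Its normalized log2 intensities were 1.28, 1.31 and 1.39 in WT replicates 1 to 3 and 2.44, 2.54 and 2.57 in IG27 replicates 1 to 3. Every IG27 array was above every WT array. The log2 fold change was 1.19 (standard error, SE, 0.06, 95% interval 1.05 to 1.33, limma, adjusted p = 7.70e-06), a 2.28-fold rise, and 81.3% of all genes tested had a smaller change in either direction. A second probe of *Myc* read -1.81, -1.77 and -1.91 in WT and -0.77, -0.59 and -0.61 in IG27 cells, and its log2 fold change was 1.17 (SE 0.07), close to that of the first probe.

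The other Myc genes were at or near background. *Mycn*, which serves neural progenitors, read -7.57, -7.57 and -8.06 in WT and -6.13, -6.03 and -5.94 in IG27 cells, and its probe was well above background on no complete array. The values of the groups did not overlap, but both lie where the array gives no measured level, so no fold change is given. *Mycl* had 2 probes. The first was well above background on no complete array, with values of -7.93 to -7.56 in WT and -7.75 to -7.44 in IG27 cells. The second was well above background on 1 WT array and 1 IG27 array, with values of -5.88, -5.39 and -5.70 in WT and -5.22, -4.98 and -4.99 in IG27 cells, and it did not enter the test.

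*Max*, the obligate partner of the Myc proteins, was not called. Its values were 3.41, 3.29 and 3.42 in WT and 3.49, 3.53 and 3.46 in IG27 cells, which did not overlap but lay close together. The log2 fold change was 0.12 (SE 0.06, 95% interval -0.02 to 0.26, limma, adjusted p = 0.105). Its second probe gave 0.25 (SE 0.09, adjusted p = 0.0413 over all probes tested, limma), and 69.7% of all probes passed that test. *Max* was also called under quantile normalization (0.28, adjusted p = 0.00293), as the mean of its probes (0.19, adjusted p = 0.0285) and with slide row as a block (0.21, adjusted p = 0.0456), each from limma.

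Among the antagonists, *Mxd3* and *Mxd1* fell and *Mxi1* rose. *Mxd3*, an Mxd protein known from cycling progenitor cells, had values of 2.61, 2.63 and 2.60 in WT and 1.75, 1.73 and 1.66 in IG27 cells. All IG27 arrays were below all WT arrays. Its log2 fold change was -0.90 (SE 0.05, 95% interval -1.02 to -0.79, limma, adjusted p = 1.03e-05), a 1.87-fold fall, and its second probe gave -0.87 (SE 0.07).

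*Mxd1*, the Mxd protein that is typically induced when cells stop dividing and differentiate, also fell by its brighter probe. The values were 0.86, 0.57 and 0.74 in WT and -0.23, -0.18 and -0.12 in IG27 cells, with no overlap. The log2 fold change was -0.90 (SE 0.08, 95% interval -1.11 to -0.69, limma, adjusted p = 1.34e-04). The second probe of *Mxd1* did not show this. It read -4.85, -4.71 and -4.22 in WT and -4.88, -4.70 and -4.61 in IG27 cells, and its log2 fold change was -0.14 (SE 0.17, adjusted p = 0.503 over all probes tested, limma). As the mean of both probes *Mxd1* had a log2 fold change of -0.52 (limma, adjusted p = 0.00407). That mean includes the brighter probe, so the fall of *Mxd1* rests on 1 probe.

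*Mxi1*, which represses the same sites and is also known as a hypoxia-responsive antagonist of Myc, rose. Its values were 2.28, 2.16 and 2.28 in WT and 3.22, 3.1 and 3.09 in IG27 cells, every IG27 array above every WT array. The log2 fold change was 0.90 (SE 0.06, 95% interval 0.74 to 1.05, limma, adjusted p = 3.40e-05), a 1.86-fold rise. It has 1 named probe, so no other probe bears on it.

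*Mxd4* and *Mnt* were not called. *Mxd4*, an Mxd protein of differentiating cells, had values of 0.12, 0.03 and 0.03 in WT and 0.06, -0.01 and 0.15 in IG27 cells, which overlapped, and a 95% interval of -0.14 to 0.16 for its log2 fold change. *Mnt*, the broadly expressed Max-binding repressor, had values of 3.01, 2.93 and 2.92 in WT and 3.06, 3.02 and 3.05 in IG27 cells, which did not overlap. Its log2 fold change was 0.09 (95% interval -0.03 to 0.21, limma, adjusted p = 0.139), and only quantile normalization called it (0.24, adjusted p = 0.00423).

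*Mlx* links the network to MondoA and ChREBP and was not called. Its values were 1.18, 1.15 and 1.24 in WT and 1.31, 1.22 and 1.26 in IG27 cells, which overlapped. The log2 fold change was 0.07 (95% interval -0.05 to 0.19, limma, adjusted p = 0.247), its second probe gave -0.15 (SE 0.10), and under quantile normalization it was called at 0.15 (adjusted p = 0.0229). The 4 genes whose promoter windows held CACGTG (*Max*, *Mlx*, *Mnt* and *Mxd4*) were the 4 tested genes that limma did not call. None of them had an unadjusted p under 0.05 either, and quantile normalization called 3 of them. The called *Myc* had no window to search. Of all tested genes with a window, 71.1% of those with CACGTG and 70.6% of those without it were called.

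**Figure D2:**
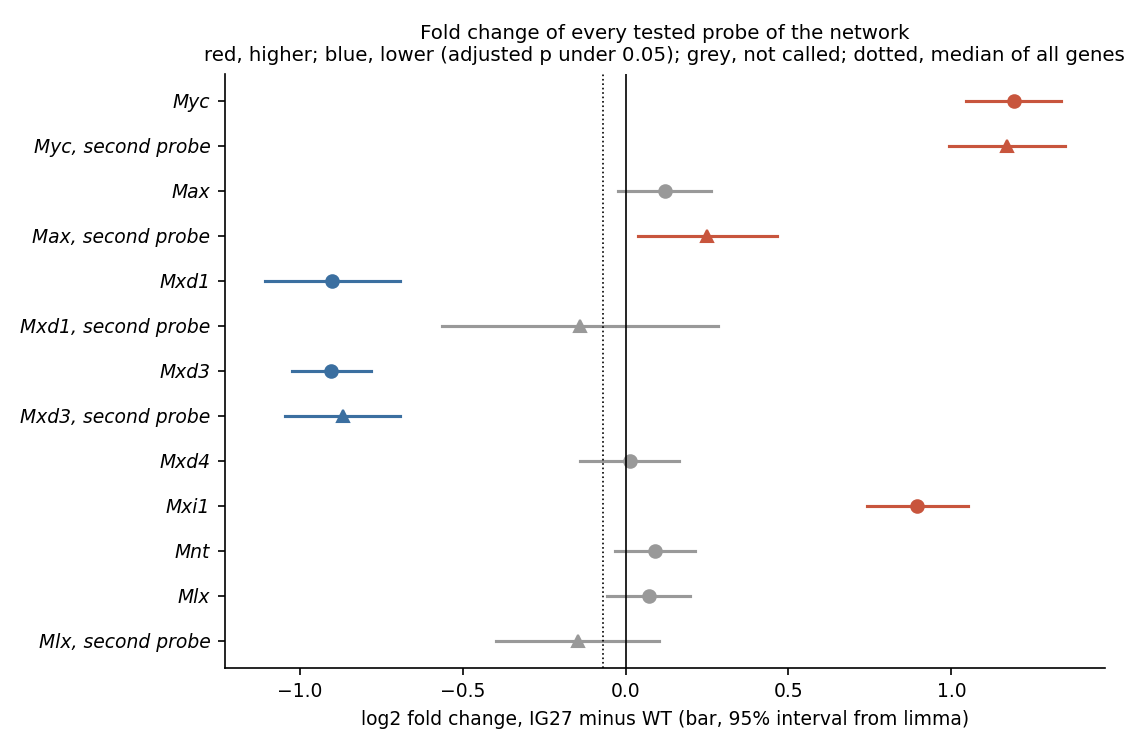
Log2 fold change, IG27 minus WT (x axis), of every tested probe of the network, with the 95% interval from limma fitted over all probes. Circles are the first and triangles the second probe of a gene, and the dotted line is the median of all genes tested, -0.07. The intervals of both probes of *Myc* begin at 0.99 or above and those of both probes of *Mxd3* end at -0.69 or below, whereas the second probe of *Mxd1* spans 0.

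**Figure D3:**
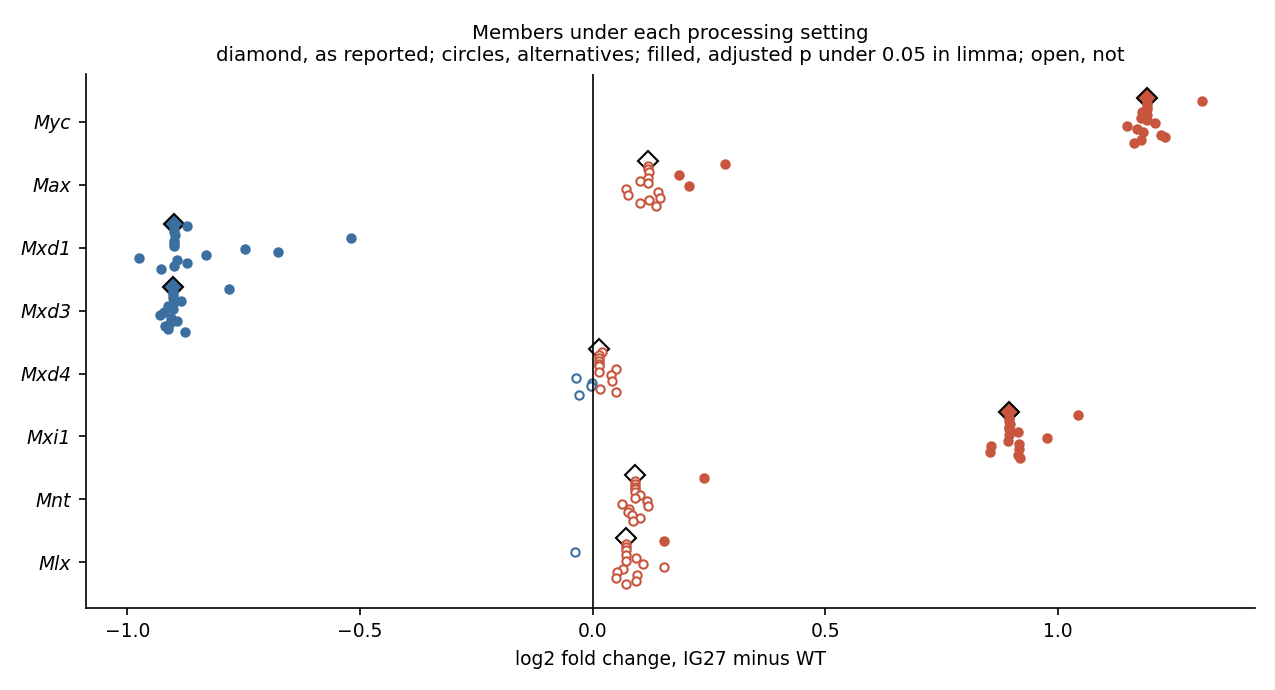
Log2 fold change, IG27 minus WT (x axis), of the 8 tested members as reported (diamonds) and under the 16 alternative fits (circles), filled where limma gave an adjusted p under 0.05. *Myc*, *Mxi1*, *Mxd1* and *Mxd3* are filled in all of them, and *Mxd1* spreads most, from -0.98 to -0.52.

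The pattern of *Myc* over the 6 arrays, taken relative to the WT mean of each gene, was compared with that of the 14897 other genes tested. The nearest were *Scd1* (Euclidean distance 0.08 on the log2 scale), *Il1rap* (0.09), *Gtpbp2* (0.10), *Qrsl1* (0.11) and *Nme3* (0.11), with log2 fold changes of 1.19 to 1.21. With 2 groups this likeness says mainly that their differences have the same size.

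The genes beside *Myc* on chromosome 15 were mostly higher too. Of the 10 tested genes on each side, 16 were higher and 1 was lower, and their median log2 fold change was 0.77. The median of the 610 genes tested on chromosome 15 was 0.30 and that of all genes tested was -0.07. *Pvt1*, the noncoding RNA gene next to *Myc*, read 1.27, 1.06 and 1.08 in WT and 2.33, 2.30 and 2.31 in IG27 cells, with a log2 fold change of 1.18 (SE 0.07, limma, adjusted p = 1.53e-05). On the other side, *Lratd2* had a log2 fold change of 2.32, *Trib1* of 0.88 and *Sqle*, an enzyme of cholesterol synthesis, of 1.11. The part of the surrounding region in the rise of *Myc* was not tested.

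Around the other called members the neighbors moved less. The median log2 fold change of the 20 neighbors was 0.28 at *Mxi1* (chromosome 19, 13 higher and 3 lower), -0.23 at *Mxd1* (chromosome 6, 4 higher and 13 lower) and -0.34 at *Mxd3* (chromosome 13, 1 higher and 10 lower). In each case it had the sign of the member and was smaller. The medians of the genes tested on chromosomes 19, 6 and 13 were 0.18, -0.21 and -0.16. At *Mnt* and *Mlx*, which were not called, the neighbor medians were -0.38 and -0.19, opposite in sign to the member. At *Max* and *Mxd4*, also not called, they were 0.02 and 0.04, with the sign of the member. Of all genes tested, 30.5% were higher and 40% lower. The genes on either side of *Mxd3*, *Prelid1* (0.03) and *Lman2* (-0.06), were not called. Their part in these results was not tested.

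**Figure D4:**
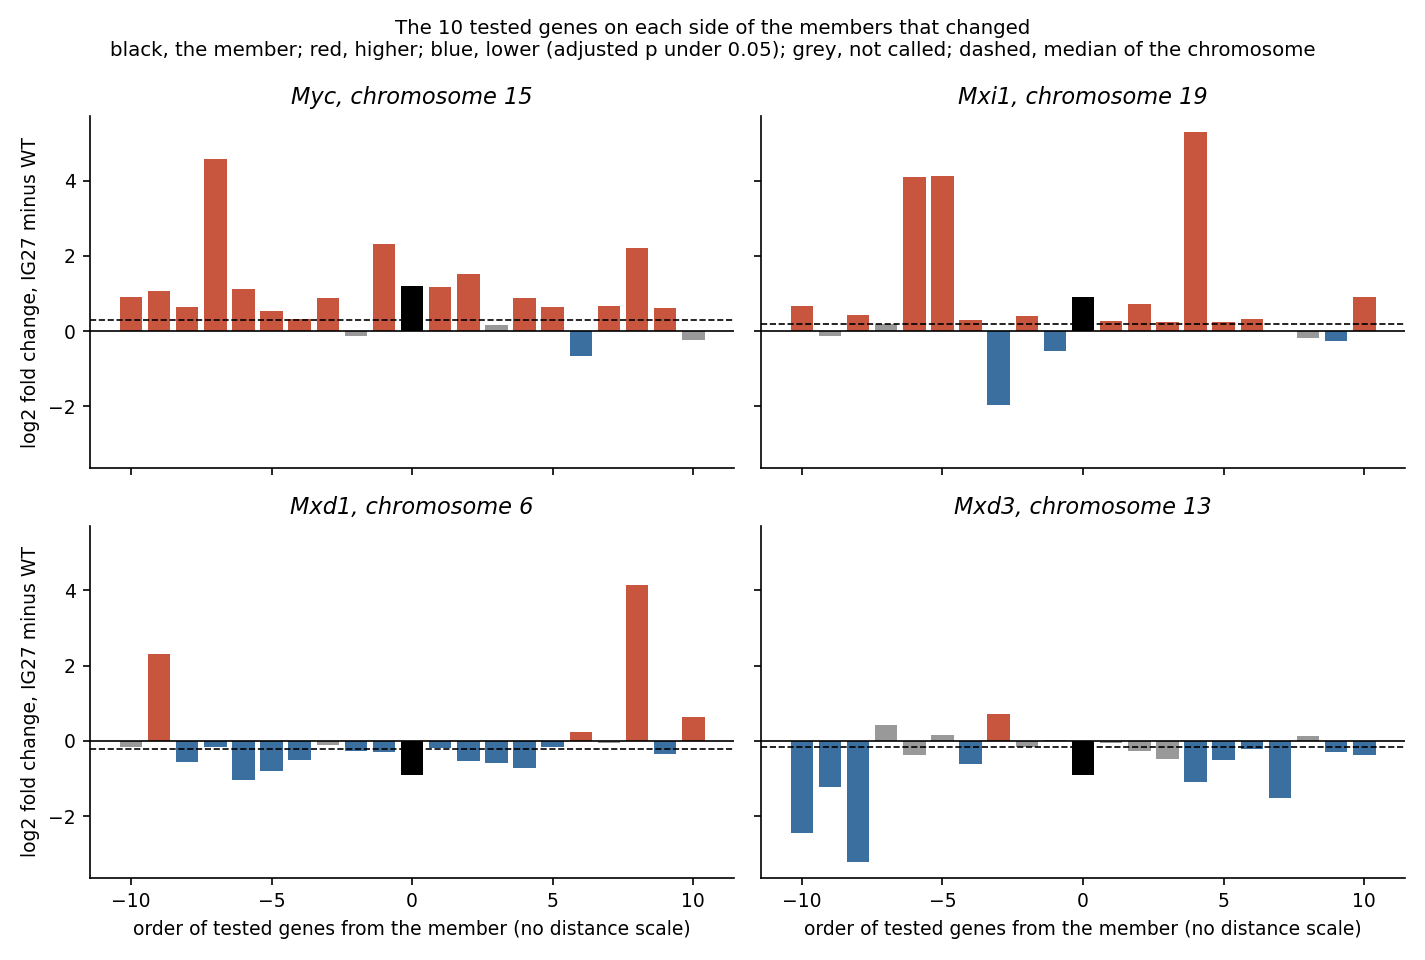
Log2 fold change, IG27 minus WT (y axis), of the 10 tested genes on each side of *Myc*, *Mxi1*, *Mxd1* and *Mxd3* in chromosomal order (x axis, no distance scale), with the member in black and the median of the chromosome dashed. Of the 20 neighbors of *Myc*, 16 are higher, and of the 20 neighbors of *Mxd3*, 10 are lower and 1 is higher.

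The remaining genes of the extended network changed in both directions. *Bmyc*, a rodent relative of *Myc*, had a log2 fold change of 1.20 (SE 0.09, limma, adjusted p = 5.15e-05). *Mlxipl*, which encodes ChREBP, had one of 0.28, *Mlxip*, which encodes MondoA, of -0.29, and *Mga*, a Max-binding repressor, of -0.31, with an adjusted p under 0.05 for each. The 2 best known targets of Mlx and MondoA rose: *Txnip*, an inhibitor of glucose uptake, read 2.84, 2.86 and 2.94 in WT and 3.76, 3.84 and 3.79 in IG27 cells, and its log2 fold change was 0.92 (SE 0.05, limma, adjusted p = 1.52e-05). *Arrdc4*, a related arrestin, had a log2 fold change of 1.08 (SE 0.11). Its promoter window held an E-box, shown because *Arrdc4* is the only one of this pair with a match.
*Arrdc4*, chr7:68749414-68749443, minus strand, GRCm38.p6: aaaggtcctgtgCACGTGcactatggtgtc

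Of 14 cofactors that Myc recruits, 5 were higher and 4 lower, 64.3% against 70.5% of all genes, with a median log2 fold change of 0.11. The largest rises were those of *Zbtb17* (0.67), which encodes the Myc partner Miz1, and *Ruvbl2* (0.65). The largest falls were those of *Actl6a* (-0.54) and *Ruvbl1* (-0.48). Ruvbl1 and Ruvbl2 are ATPases of 1 complex, and their genes moved in opposite directions.

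Of 12 genes that control the stability of the Myc protein, 2 were higher and 4 lower, 50% against 70.5% of all genes. *Huwe1* (-0.91), a ubiquitin ligase, fell most, and *Usp36* (0.56), a nucleolar deubiquitinase, and *Gsk3b* (0.54), the kinase that marks Myc for degradation, rose most. *Fbxw7*, the ligase that reads this mark, had a log2 fold change of 0.11 and was not called.

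The Sin3 and histone deacetylase corepressor, which the Mxd proteins, Mxi1 and Mnt recruit, had a share of called genes near that of all genes, 71.4% against 70.5%. Of 14 tested, 3 were higher and 7 lower, where all genes also had more lower (40%) than higher (30.5%), and the median log2 fold change was -0.29 against -0.07 for all genes. *Sap30* (-1.09) and *Ing2* (-0.998) fell most. *Sin3b* had a log2 fold change of -0.89 and *Sin3a*, the other scaffold, of -0.28. *Hdac2* (1.03) and *Brms1* (0.57) rose most.

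Genes known as Myc targets in ribosome biogenesis were more often higher than lower. Of 27 tested, 15 were higher and 8 lower, with a median log2 fold change of 0.20. The share called was 85.2%, against 70.5% of all genes. *Ddx21* (1.004), a nucleolar helicase, and *Wdr43* (0.81), a factor of the small subunit, rose most, whereas *Gnl3* (-0.98), which encodes nucleostemin, and *Rrp9* (-0.55) fell most. *Ncl* (-0.26), which encodes nucleolin, was lower, and *Npm1* (0.05) was not called. Under quantile normalization 16 were higher and 4 lower, 74.1% of the list against 72.6% of all genes. With slide row as a block, which compares the IG27 arrays with WT replicate 2 alone, 10 were higher and 5 lower, 55.6% against 60% of all genes. Without WT replicate 2, 18 of 27 were called, 66.7% against 68.1% of all genes. The share called in this list was thus near or below that of all genes in these settings. In the other settings it was above that of all genes, least so without IG27 replicate 1, at 70.4% against 67.9%.

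Of 29 targets in metabolism and growth, 7 were higher and 8 lower, 51.7% against 70.5% of all genes, with a median log2 fold change of 0.01. Under quantile normalization 11 were higher and 7 lower, 62.1% against 72.6% of all genes. *Shmt1* (0.96), of folate metabolism, and *Ppat* (0.45), the first enzyme of purine synthesis, rose most. *Impdh2* (-1.16), of guanine nucleotide synthesis, and *Slc16a1* (-1.08), a lactate transporter, fell most. *Odc1*, the classical Myc target of polyamine synthesis, had a log2 fold change of 0.01 (SE 0.10), and *Cad*, of pyrimidine synthesis, had one of 0.11 (SE 0.06). Neither was called.

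The E-box was more frequent in the windows of both target lists, 23.8% and 37%, than in those of all 27025 genes with a window, 8.09%. The 27025 include genes that were not tested, whereas every gene of both lists was tested. In the ribosome list 5 of 21 genes held it, of which *Wdr43*, *Pes1* and *Mybbp1a* were higher and *Utp20* and *Nop2* lower. In the list of metabolism and growth 10 of 27 held it. Of these, 6 were lower (*Impdh2*, *Slc16a1*, *Eif4e*, *Apex1*, *Eif4a1* and *Cdk4*) and none was higher, at an adjusted or an unadjusted p under 0.05 in limma, and their median log2 fold change was -0.25. Over all tested genes with a window, 1313 held CACGTG, of which 438 were higher and 496 lower, a median log2 fold change of -0.03. The 10495 genes without it had a median of -0.08, with 3115 higher and 4290 lower.

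Of 7 genes known to be held down by Myc, 3 were higher and 1 was lower, 57.1% against 70.5% of all genes. *Ndrg1* (0.89, SE 0.23), *Cdkn2b* (0.87) and *Cdkn1a* (0.69), the last pair being inhibitors of cyclin-dependent kinases, were higher. *Pdgfrb* (-1.16) was lower. The list had a median log2 fold change of 0.69, in the same direction as *Myc* itself. That median covers all 7 genes, of which 3 were not called.

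**Figure D5:**
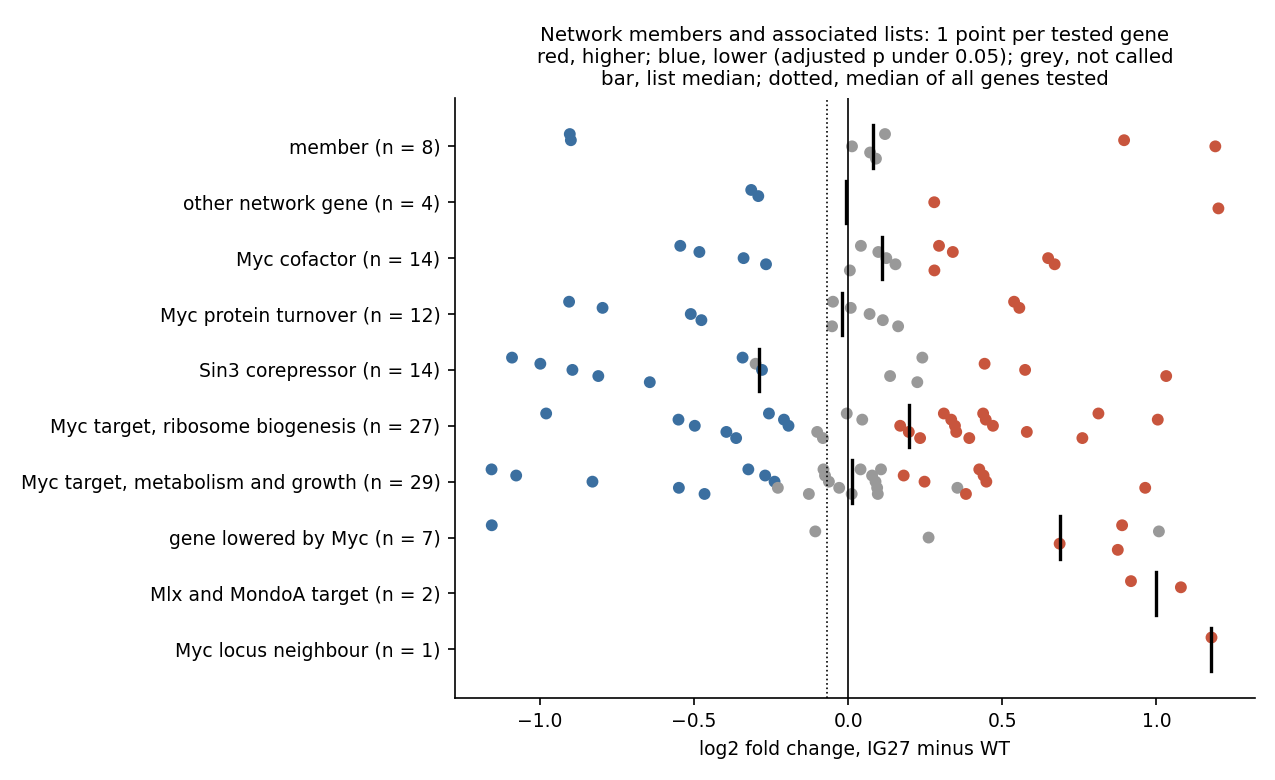
Log2 fold change, IG27 minus WT (x axis), of every tested gene of the network and of the associated lists, 1 point per gene, red for higher and blue for lower at an adjusted p under 0.05 from limma, with the list median as a bar and the median of all genes dotted. The Sin3 list has its median at -0.29, the ribosome list at 0.20 and the list of metabolism and growth at 0.01.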

How the data were processed

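RNA of 3 WT and 3 IG27 samples was labeled with Cy3 and hybridized by the authors to 1 single-color Agilent mouse slide, which was scanned and read with Feature Extraction. The deposited processed signal is a background-corrected intensity on a linear scale, and the value table deposited with the series gives these intensities unscaled between arrays. WT replicates 2 and 3 are exchanged in that table relative to the scanner output, so it was used for IG27 replicate 2 alone, whose 255 single-spot probes in its scanner output equaled the table (relative tolerance 1e-04).

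Values were log2 of the processed signal minus the 75th percentile of the array. Outlier spots were left out on the complete arrays, and none were removed from IG27 replicate 2. Probes were named through RefSeq accessions with a table of GRCm38.p6, used for names and gene order (32994 of 56605 probes named). A gene entered the test if all complete arrays of either group had one of its probes well above background. It was represented by its brightest probe and tested with limma 3.58.1 (R 4.3.3, two-sided, Benjamini-Hochberg, threshold 0.05), a moderated test as in the methods of the study. Steps were tested on simulated data. The number of arrays limits the precision. Network genes and lists were chosen with earlier results of these data known. All members were named, and from each list of 7 or more genes the called genes with the 2 largest rises and falls, and all genes of shorter lists, except 1 gene that is not reported here. *Sin3a*, *Sin3b*, *Fbxw7*, *Ncl*, *Npm1*, *Odc1*, *Cad*, *Cdkn1a*, the glial and other markers named, the named neighbors and the genes with an E-box were chosen after their values were seen.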

Additional observations from a re-analysis of the deposited data

How the results depend on the processing

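*Myc*, *Mxi1*, *Mxd1* and *Mxd3* kept their direction and call in all 17 alternatives, with log2 fold changes of 1.15 to 1.31, 0.85 to 1.04, -0.98 to -0.52 and -0.93 to -0.78. Quantile normalization called 7 members in place of 4, adding *Max* (0.28), *Mnt* (0.24) and *Mlx* (0.15), and *Max* was also called as the mean of its probes (0.19) and with the slide row as a block (0.21). For *Mlx* the mean of its probes gave -0.0381, and for *Mxd4* normexp on the median signal, run as the scanner output lacks mean signals, gave -0.037. Leaving out 1 array gave -0.0292 to 0.0505 for *Mxd4*, and none of these was called. The slide row as a block gave 15 called genes in the ribosome list in place of 23. The cause of these shifts was not tested. The alternatives overlap: the complete arrays alone and the fit without IG27 replicate 2 gave the same log2 fold changes of the members. Normexp also used only the complete arrays, and the unadjusted threshold used the main fit. With no filter on dim probes, 6 of 10 members were called, 60% against 44.6% of the 22911 genes in that setting. *Mycn* and *Mycl* were among the 6, but neither was well above background throughout a group and no size is given. Replicate number as a replicate block left the 4 called members as they were and gave 10309 called genes in place of 10501 (23 and 15 called genes of the target lists became 22 and 14), but same-numbered arrays did not deviate together (r = 0.01, 0.04 and 0.08), so the numbers pair nothing. The methods' moderated test at an unadjusted p of at most 0.05 called the 4 members and 10855 genes. Without the filter the median of all genes moved from -0.07 to 0.12. Signal near background limits *Mycn* and *Mycl*.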
